A study of Mus musculus with 14 samples.

Results

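Scratch-wounded mouse fibroblasts that had been kept with autologous micrograft (AMG) for 24 h were compared with untreated wounded fibroblasts of the same time, 1 RNA-seq library on each side out of 14 libraries in the series. Every gene with a mean normalised read count of at least 10 in these 2 libraries was a member of the comparison, which gave 13378 of the 43472 genes listed. A gene that is under 10 in one library passes this minimum only through the other, so for such genes the direction is fixed by the choice. The counts and medians of gene lists below include such genes, also where they are not named. A gene was called higher or lower when its AMG level was past 2-fold of the untreated level, that is, a log2 ratio of at least 1 or at most -1 after adding 1 to both values. With 1 library per group no p-value exists at 24 h, and every 24 h value below describes these libraries and not the treatment in general. Genes were named by rank within gene lists, and those named beyond that rule, to show exceptions or genes near 0, were chosen after their values were seen and are listed with the methods.

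Both libraries came from primary fibroblasts dissociated with collagenase IV from tail tips of C57BL/6 mice. The cells grew as a monolayer in serum-containing medium and were wounded with a pipette tip. AMG is the soluble part of mechanically minced mouse skin, filtered, freed of cells by centrifugation and diluted 1:10 in growth medium, so the treated dish received a mixture of skin proteins and no defined agent. The group called Untreated was wounded in the same way and got no AMG. The same numbered series (replicate 1) had 1 library per group at 1, 5 and 12 h too, and 3 further libraries per group (replicates 2 to 4) existed at 5 h only. Nothing in the labels says whether the 24 h libraries came from one animal or several, and the 2 arms differed in the presence of skin extract as a whole.

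Dermal fibroblasts build and clear connective tissue. After a wound they first pass through an inflammatory and matrix-degrading phase, in which metalloproteinases cut collagen and chemokines call in leukocytes, and later may turn into contractile, collagen-secreting myofibroblasts that carry smooth muscle actin. NF-kB and AP-1 factors drive many genes of the first phase, while serum response factor (SRF), YAP and TGF-beta signalling drive many genes of the second.

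The Untreated 24 h library held 22938159 reads assigned to genes and the AMG 24 h library held 20330740, within a range of 12545537 to 34696529 over the series. The limit that 0 reads allow, set at 3 reads, equals 2.30 normalised counts in the first and 2.70 in the second library. With AMG, 797 genes were higher (5.96% of the genes compared) and 1071 were lower (8.01%), around a median log2 ratio of 0.02 over all genes. Of the 13378 genes, 6894 were above 0 and 6484 below, which is the background for the counts of signs in gene lists. The ratio was at least 4-fold for 268 higher and 343 lower genes and at least 16-fold for 57 and 41. A 95% counting interval, taken from the reads by the exact Clopper-Pearson method, lay wholly past 2-fold for 492 of the higher and 617 of the lower genes. Reads carried no molecular identifiers, so intervals and floors cover counting error only.

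The number of genes that differed was not by itself outside what libraries of a single group showed. Together, 13.96% of genes were past 2-fold at 24 h, while 5.91% to 18.2% were past 2-fold between 2 libraries of the same group at 5 h (6 pairs among replicates 2 to 4). Past 16-fold the values were 0.733% at 24 h and 0.155% to 0.780% within a group. Those pairs crossed replicate numbers, and libraries that shared a number deviated together (r = 0.65, 0.76 and 0.70 across genes), whereas both 24 h libraries carried the same number. Between 12 and 24 h of the same treatment, 4.19% of genes were past 2-fold in untreated cells and 6.24% with AMG, each inside replicate 1. Longer genes tended to be lower with AMG at 24 h (Spearman rho = -0.20 across 13113 genes, which are not independent replicates), 82 ribosomal protein genes had a median log2 ratio of 0.52, and their share of reads was 2.31% untreated and 3.14% with AMG. The part of transcript length or RNA quality in any 24 h ratio was not tested beyond a length-corrected value, which is given where it matters. In a bulk library fewer cells of a kind and less RNA per cell cannot be told apart.

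**Figure D1:**
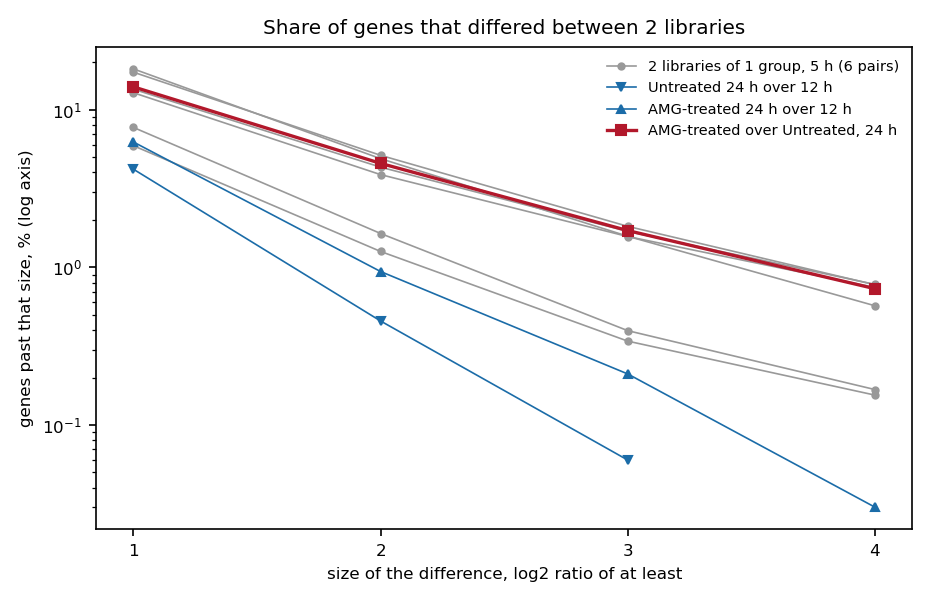
Share of genes (%, log axis) whose log2 ratio between 2 libraries was at least 1, 2, 3 or 4. The AMG over Untreated comparison at 24 h (red squares) runs from 13.96% to 0.733% and lies within the 6 pairs of libraries of a single group at 5 h (grey), and above both comparisons of 24 h with 12 h inside a treatment (blue, where 0 genes past 16-fold in untreated cells are not drawn).

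Ranked by the bound of the counting interval nearest to 0, the genes furthest above untreated at 24 h mostly served inflammation and matrix breakdown. Nos2, the inducible nitric oxide synthase, had a normalised count of 5.36 in untreated cells and 3745 with AMG, a log2 ratio of 9.20 (8.40 to 10.76). Mmp10 (stromelysin-2) stood at 42.9 and 14792, or 8.40 (8.05 to 8.84). Mmp3 (stromelysin-1) stood at 1278 and 171791, or 7.07. All 3 lie on autosomes as protein-coding genes of build mm10, at chr11:78920787-78960254, chr9:7502352-7510240 and chr9:7445822-7455975. Saa3, an acute phase apolipoprotein made by fibroblasts and macrophages, had 188 and 21680.2 (6.84). Il1a, the interleukin-1 alpha alarmin, rested on 1 untreated read against 427 reads with AMG (7.77, interval 6.49 to 14.28). Mmp13, Mmp1a, Ccl20 and Cxcl2, in the same ranking of 10, are described with their families below. The tenth was Sprr2h, a small proline-rich protein of the cornified envelope, with 0 untreated reads and 118 normalised counts with AMG. It was at least 51.3-fold higher against the floor, although its log2 ratio was 0 in each of the 3 replicated 5 h pairs. The ranking fixed the direction of all 10. Nos2, Il1a, Mmp1a and Sprr2h were under 10 untreated and entered only through their AMG values.

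The 10 genes furthest below untreated had other functions. Car3, a carbonic anhydrase, had 1856 untreated and 18.9 with AMG (-6.54). Lgr5, a receptor for R-spondins that strengthens Wnt signalling, had 456 and 3.6 (-6.63). Igfbp5, a secreted insulin-like growth factor binding protein, had 22605 and 669 (-5.08, interval -5.19 to -4.97). The last was the most precisely measured of the 10, with 29519 and 743 reads. Eln, which encodes the elastin precursor, had 128 untreated and 0 reads with AMG, at least 47.4-fold lower, and Scel (sciellin) had 110.3 and 0, at least 40.8-fold lower. Atp12a, an ion pump subunit, went from 199 to 0.9 (-6.72), Ggt5, a glutathione-cleaving enzyme, from 290.2 to 2.7 (-6.30), and Scn7a, a sodium channel, from 206 to 3.6 (-5.49). Megf6 had 790.3 and 22.5 (-5.07), and Ogn, the proteoglycan osteoglycin, had 2417 and 105 (-4.51). The ranking fixed the direction of all 10, and the ratio was past 16-fold in each. Lgr5, Eln, Scel, Atp12a, Ggt5 and Scn7a were under 10 with AMG and entered only through their untreated values.

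**Figure D2:**
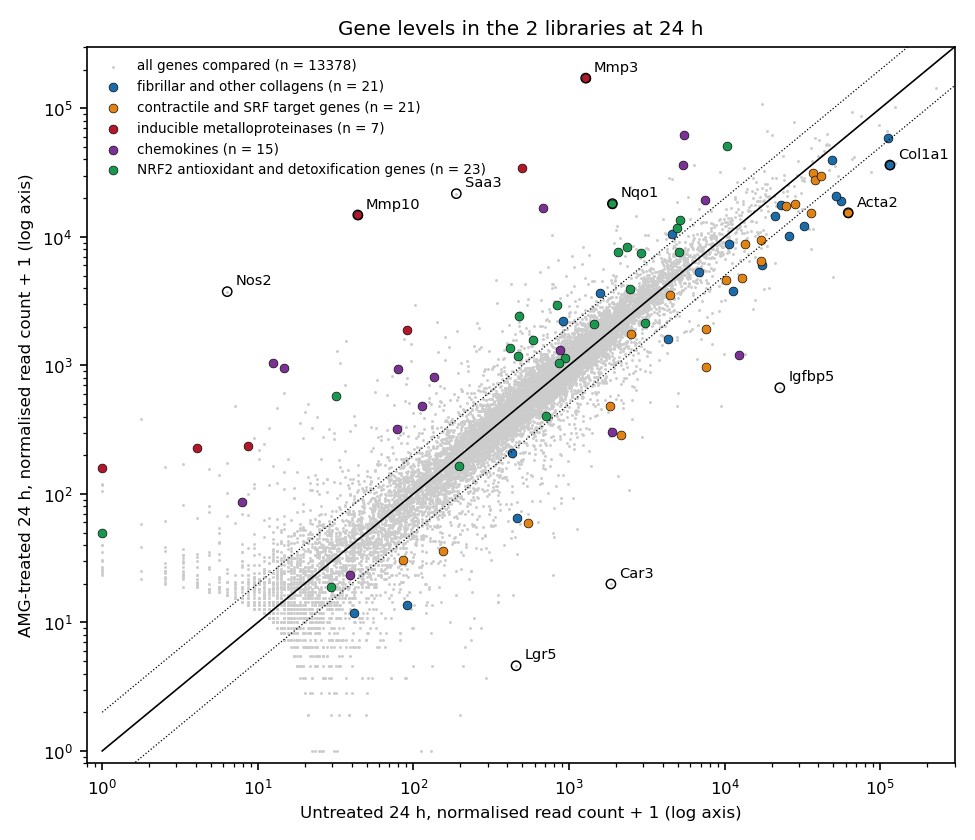
Normalised read count plus 1 of 13378 genes in the Untreated 24 h library (x) and the AMG-treated 24 h library (y), both log axes, with the line of equality and dotted lines at 2-fold. Coloured points are the compared members of 5 gene lists: the 7 inducible metalloproteinases all lie above the upper dotted line (Mmp3 at 1278 and 171791) and the 21 contractile genes all lie below equality (Acta2 at 62221 and 15379.6).

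The 7 compared inducible metalloproteinases were higher with AMG, with a list median of 6.10. Mmp1a, Mmp1b and Mmp12 were under 10 untreated and entered only through their AMG values, so for these the direction was fixed by the choice, while Mmp3, Mmp9, Mmp10 and Mmp13 were above 10 in both libraries. These enzymes are nearly silent in resting fibroblasts, and between them they cut fibrillar collagen, gelatin, proteoglycans and fibronectin. Mmp13, the main interstitial collagenase of mice, stood at 499 and 34312 (6.10, interval 5.99 to 6.22). Mmp9 (gelatinase B) stood at 90.4 and 1868 (4.35), and Mmp12 (macrophage elastase) at 7.66 and 236 (4.77). Mmp1b had 3.06 and 227 (5.81), and Mmp1a, which the GENCODE annotation lists as a polymorphic pseudogene, had 0 and 158, at least 69-fold higher. Mmp1a and Mmp1b are near copies whose reads the counting could split, and Mmp1b overlaps Mmp12 on the opposite strand, so their single values are uncertain. The eighth member, Mmp8 (neutrophil collagenase), had 0 and 5.4 and was not compared. The list median was already 5.79 at 12 h, and 5 of the 7 had been called higher in the replicated test at 5 h, against 0.855% of the 13096 genes tested there. With the replicate number as a block, all 7 were called higher, against 4.05% of those genes.

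Of the 7 genes, 6 are neighbours on chromosome 9, between 7272514 and 7510240 of build mm10, and the ratios on both sides of that stretch were small (a comparison chosen after the values were seen). In genomic order the log2 ratios ran from 0.39 at Dcun1d5 through 6.10 (Mmp13), 4.77 (Mmp12), 5.81 (Mmp1b), 7.07 (Mmp3), 7.32 (Mmp1a) and 8.40 (Mmp10) to -0.37 at Tmem123. Between Mmp10 and Tmem123 lie 4 more metalloproteinase genes, Mmp8, Mmp27, Mmp20 and Mmp7, and none of them exceeded 5.40 normalised counts in either library. Past Tmem123, the apoptosis inhibitor Birc2 had -0.41 and its NF-kB-responsive neighbour Birc3 had 1.39. The 6 lie apart from Mmp9, which is on chromosome 2.

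The promoters of these genes share a short element. The letters TGANTCA, an AP-1 site that reads the same way on both strands, were searched in windows of 250 bases before to 50 bases after the start of each gene, taken from RefSeq on GRCm38.p6. A gene with several windows counted once if any of them held the letters. They were found in 7.81% of 32851 windows, in 6.52% of the compared genes that had a window, in 13.9% of the genes higher at 24 h (72 of 518) and in 7.95% of those lower (55 of 692). Each of the 6 clustered genes had a match, and Mmp9 had no window. The 100 bases before the start are shown for them, on the strand of the gene, with the match in capitals, because the position of the element and its surroundings can be compared across a series of neighbours with high ratios.
Mmp13 (chr9:7272414-7272513, plus strand): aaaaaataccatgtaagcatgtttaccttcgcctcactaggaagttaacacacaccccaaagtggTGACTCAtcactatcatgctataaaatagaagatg
Mmp12 (chr9:7347274-7347373, plus strand): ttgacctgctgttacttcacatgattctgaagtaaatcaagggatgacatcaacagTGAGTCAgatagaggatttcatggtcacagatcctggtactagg
Mmp1b (chr9:7388027-7388126, minus strand): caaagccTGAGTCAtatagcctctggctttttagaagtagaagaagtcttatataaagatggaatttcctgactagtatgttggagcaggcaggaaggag
Mmp3 (chr9:7445722-7445821, plus strand): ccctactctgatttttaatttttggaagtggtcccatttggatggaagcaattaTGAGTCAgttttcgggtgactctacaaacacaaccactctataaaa
Mmp1a (chr9:7464041-7464140, plus strand): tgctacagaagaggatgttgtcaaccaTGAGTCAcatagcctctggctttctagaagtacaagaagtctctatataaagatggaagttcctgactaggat
Mmp10 (chr9:7502242-7502341, plus strand): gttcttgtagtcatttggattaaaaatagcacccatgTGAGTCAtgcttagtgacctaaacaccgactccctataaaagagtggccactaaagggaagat
The match began 35 bases before the start in Mmp13, 44 in Mmp12, 46 in Mmp3, 63 in Mmp10, 73 in Mmp1a and 93 in Mmp1b. It read TGAGTCA in 5 of them and TGACTCA in Mmp13. A match of letters describes the window and does not show that a factor was bound there.

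Metalloproteinases that fibroblasts make all the time, and their tissue inhibitors, did not share that pattern. Of 12 compared members 0 were higher and 3 were lower (median -0.47). Timp3, an inhibitor that is held in the matrix, stood at 50031 untreated and 4876 with AMG (-3.36, interval -3.40 to -3.32), after 34862 and 7097 at 12 h and no separation at 1 h (0.03). Its values in the 3 replicated 5 h pairs were -0.30, 0.20 and -0.31, so the 24 h difference had no counterpart there. Timp3 lies inside the gene Syn3 on the opposite strand. The membrane-anchored Mmp17 (-1.69) and Mmp28 (-1.27) were the other lower members, and Mmp23, at -0.71, was not past 2-fold. In plasminogen activation 5 of 9 genes were higher and 1 lower (median 1.31). Serpinb2 (plasminogen activator inhibitor-2) had 95.7 and 1455 (3.91), Procr (the endothelial protein C receptor) 522 and 4310.5 (3.04), and Plaur (the urokinase receptor) 969 and 3554 (1.87). The exception was F3 (tissue factor), with 7732 and 2388 (-1.69).

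Inflammatory genes differed by list. Among 17 NF-kB feedback and survival genes 11 were higher and 1 lower (median 1.18). Nfkbia, the IkB-alpha protein that holds NF-kB in the cytoplasm, stood at 423 and 4319 (3.35, interval 3.23 to 3.48). Zc3h12a, an RNase that destroys cytokine mRNA, stood at 343 and 3036 (3.14), the nuclear regulator Nfkbiz at 647 and 5292 (3.03) and Ier3 at 2016 and 11249 (2.48). The subunit genes differed less, with 1.18 for Nfkb1, 1.68 for Relb, 0.47 for Rela and -1.33 for Rel, the only lower member of the list. Tnfaip2 was at 1.55.

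Of 15 chemokines compared, 11 were higher and 2 lower (median 2.58). Ccl5, among the higher, was under 10 untreated, so its direction was fixed by the choice. Ccl20, a ligand of CCR6 on lymphocytes and dendritic cells, had 11.5 and 1046 (6.39, interval 5.78 to 7.35), and the neutrophil attractants Cxcl2, Cxcl1 and Cxcl3 had 13.8 and 947 (6.00), 675 and 16852 (4.64), and 78.9 and 944 (3.56). The chemokines that resting stroma makes went the other way: Cxcl14 had 12403 and 1209 (-3.36, interval -3.44 to -3.28), and Cxcl12, which keeps haematopoietic cells in place, was at -2.62. Among cytokines and colony-stimulating factors 9 of 16 were higher and 4 lower (median 1.70). Il1a, Csf2 and Csf3, among the higher, were under 10 untreated, and Il33, among the lower, was under 10 with AMG. For these the direction was fixed by the choice, and the list median counts them. Lif, of the interleukin-6 family, had 102 and 2935 (4.84), Csf3 (the granulocyte factor) 5.36 and 172 (4.76), and Csf2 (the granulocyte-macrophage factor) 0 and 23.4, at least 10.2-fold higher. Csf1, the macrophage factor that fibroblasts secrete constitutively, stood at 43609 and 46820.2 (0.10).

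Saa3 was followed in the acute phase list by Lcn2 (lipocalin-2, an iron-sequestering defence protein), with 36 and 1545 (5.38), by Hp (haptoglobin), with 14.6 and 185 (3.58), and by Cp (ceruloplasmin), with 159 and 1662 (3.37). In all, 5 of 13 members were higher and 1 lower, and the list median of 0.22 did not show the size of the leading members. Ptx3 (pentraxin-3), which was called higher at 5 h (limma, adjusted p = 0.0452, log2 fold change 3.15 ± 0.52 SE), was level at 24 h, with 6513 and 5734 (-0.18). Of 11 genes around Nos2, arginine and prostaglandins, 8 were higher and 1 lower (median 2.19). Nos2 and Arg2 were under 10 untreated and entered only through their AMG values, so their direction was fixed by the choice. Arg2, the mitochondrial arginase, had 0 and 116, at least 50.5-fold higher. Ptges (prostaglandin E synthase) had 2453 and 24385 (3.31) and Ptgs2 (cyclooxygenase-2) 4903 and 18582 (1.92), while Hpgd, which inactivates prostaglandins, had 348 and 13.5 (-4.59). Genes for making and for degrading prostaglandin E2 thus lay on opposite sides.

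The median of the interferon-stimulated genes was high at 12 h and below 0 at 24 h. They encode antiviral effectors and their inducers. At 24 h, 0 of 17 were higher and 2 were lower (median -0.41), whereas the median at 12 h was 3.27. Mx2 went from 8.78 to 42.1 between 12 and 24 h in untreated cells and from 173 to 10.8 with AMG, which moved its log2 ratio from 4.16 to -1.87. Rsad2 (viperin) went from 3.66 to 44.4 and from 148 to 22.5, and Oasl2 from 78.3 to 181 and from 762 to 64.8. Over the 17 genes the median change from 12 to 24 h was 0.95 untreated and -2.66 with AMG, and 14 of the 17 were past 2-fold down with AMG. Both arms therefore moved, in opposite directions. Stat2 (-0.88), a transcription factor of the response, was not past 2-fold.

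**Figure D3:**
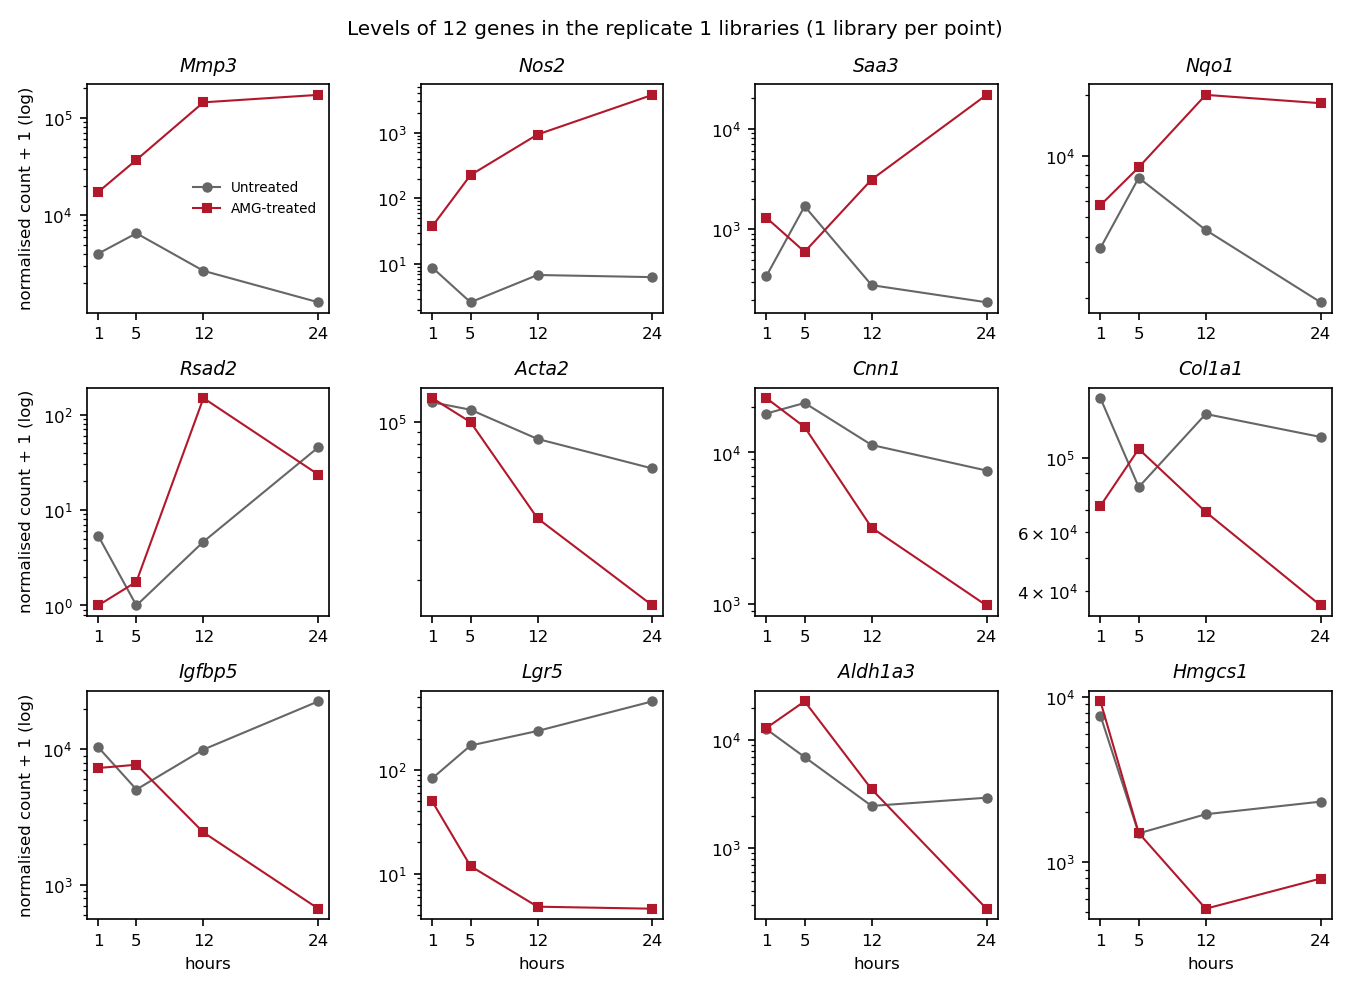
Normalised read count plus 1 (log axis) of 12 genes at 1, 5, 12 and 24 h in the replicate 1 libraries, untreated (grey circles) and AMG-treated (red squares), 1 library per point. Mmp3, Nos2, Saa3 and Nqo1 stand higher with AMG at 24 h, Rsad2 crosses between 12 and 24 h, and Acta2, Cnn1, Col1a1, Igfbp5, Lgr5, Aldh1a3 and Hmgcs1 stand lower.

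Antioxidant genes were next. NRF2 is a transcription factor that oxidants and electrophiles release from KEAP1, and its targets make glutathione, NADPH and detoxifying enzymes. Of 23 compared genes 14 were higher and 0 lower (median 1.37, against 0.99 at 12 h). Nqo1, the quinone reductase, had 1898 and 18119 (3.25, interval 3.19 to 3.32), and Slc7a11, the cystine importer, had 30.6 and 581 (4.20). Prdx1 (peroxiredoxin-1) stood at 10420.1 and 50978 (2.29) and the exporter Abcc4 at 477 and 2401 (2.33). The enzymes of the pentose phosphate route that supply NADPH included Taldo1 (1.87), Pgd (1.40), Tkt (0.59) and G6pdx (0.53), of which the first 2 were past 2-fold. Gsta3, a glutathione transferase whose family members are near copies, had 0 and 48.6, at least 21.2-fold higher, and entered only through its AMG value.

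The antioxidant response element, searched as TGACNNNGC on both strands, was in 12.4% of all windows, in 17.0% of the compared genes, in 17.8% of the higher and 14.5% of the lower genes, and in 9 of the 19 NRF2 list members with a window. In 149 of 32851 windows it overlapped an AP-1 match, since GCTGAGTCA read on one strand carries both. Stretches of 100 bases around the match are shown for Gsta3, the list member with the largest ratio that has one. They are also shown for Prdx1, which is among the list members where the overlap occurs. The match began 121 and 133 bases before the start and is in capitals.
Gsta3 (chr1:21240418-21240517, plus strand): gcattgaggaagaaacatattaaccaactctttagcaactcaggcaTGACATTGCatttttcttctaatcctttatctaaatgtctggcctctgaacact
Prdx1 (chr4:116685420-116685519, plus strand): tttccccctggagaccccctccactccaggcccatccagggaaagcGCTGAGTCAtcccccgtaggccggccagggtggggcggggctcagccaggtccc
Haem, iron and metallothionein genes stood alike, with 8 of 15 higher and 0 lower (median 1.33). Slc40a1, among the higher, was under 10 untreated, so its direction was fixed by the choice. Slc40a1 (ferroportin, the iron exporter) had 9.19 and 186 (4.20), and the metal-binding Mt2 and Mt1 had 338 and 4602 (3.76) and 486 and 2621 (2.43). Hmox1, the haem oxygenase, had 4595 and 28068 (2.61), and Fth1 (ferritin heavy chain) 27896 and 77951 (1.48).

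Matrix genes were described in separate lists, of which only the collagens and the small proteoglycans had more than 50% of their members lower. The share of the small proteoglycans counts Aspn and Omd, whose direction was fixed by the choice. Of 21 collagen chain genes, 12 were lower, 3 were higher and 18 had a ratio below 0 (median -1.32), against 6484 of all 13378 genes below 0. Col1a1 and Col1a2, which together make type I collagen, had 115254 and 36187 (-1.67, interval -1.69 to -1.66) and 56314 and 19138 (-1.56). Type III collagen differed less, with 48780.1 and 39824 for Col3a1 (-0.29). The largest ratios were those of the fibril-associated Col14a1, at 459 and 63.9 (-2.82), of Col15a1 (-2.74) and of Col8a2 (-1.82), and the type VI chain Col6a3 was at -1.58. The 3 exceptions were Col7a1 (1.28), which forms anchoring fibrils under the epidermis, Col18a1 (1.22), the source of endostatin, and Col5a3 (1.20). Collagen genes have long transcripts, and after correction for length Col1a1 was at -1.60, Col1a2 at -1.39 and Col6a3 at -1.42.

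The collagen list did not hold one sign over the earlier libraries. Its median was -0.71 at 1 h, 0.71 at 5 h and -0.35 at 12 h in replicate 1, and -0.74, -0.25 and -0.57 in replicates 2 to 4 at 5 h. The 5 h pair of replicate 1 was also the one whose ratios went up with transcript length (rho = 0.43), against -0.20 to -0.39 in the replicated pairs. Col1a1 in that pair stood at 81645 untreated and 106127 with AMG. From 12 to 24 h the 21 genes moved by a median of 0.04 in untreated cells and -0.74 with AMG, so the wider gap at 24 h came with lower AMG values.

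Enzymes that mature collagen differed less, with 3 of 16 lower and 0 higher (median -0.55). The crosslinking oxidases Lox and Loxl2 had 87162 and 32166 (-1.44) and 13247 and 4788 (-1.47), and the prolyl hydroxylase subunit P4ha3 had -1.34. Adamts2, which trims procollagen, was at -0.95. Among 15 elastic fibre genes 4 were lower and 0 higher (median -0.60), led by Eln and by Fbn2 (fibrillin-2), with 401 and 60.3 (-2.71). Eln was under 10 with AMG and entered only through its untreated value. Efemp1 (-1.15) and Fbln1 (-1.03) were lower and Fbln2 (-0.85) was not past 2-fold. Small leucine-rich proteoglycans, which space collagen fibrils and hold growth factors, had the lowest median of all lists of at least 6 genes outside the cell type markers, -2.13, with 5 of 9 lower. Aspn (asporin) had 245 and 9.9 (-4.50), Omd (osteomodulin) 49.8 and 2.7 (-3.78) and Prelp 8296 and 1478 (-2.49). Aspn and Omd were under 10 with AMG and entered only through their untreated values, so for these the direction was fixed by the choice. The list's median and its rank depend on these genes. Bgn (biglycan) was at -0.41. Dcn (decorin) was the one higher member, with 789 and 4316 (2.45).

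Fibronectin and matricellular proteins, the adhesive and signalling components of a wound matrix, had 4 of 14 members lower and 1 higher (median -0.66). Fn1 (fibronectin) stood at 123887 and 37582 (-1.72, -1.57 after length correction), Wisp2 at 20933 and 6235 (-1.75) and Postn (periostin) at 1682 and 743 (-1.18). Thbs1 (thrombospondin-1) was at -0.68. Spp1 (osteopontin), a cytokine-like adhesive protein, was higher, with 18760.3 and 66739.8 (1.83). Thbs4, which is outside the list, had 15709 and 3247 (-2.27). Of 10 hyaluronan genes 2 were higher, Cemip, a hyaluronan-degrading protein, with 6348 and 36338 (2.52), and the synthase Has1 (1.51). The receptor Cd44 (0.93) and the synthase Has2 (-0.92) had ratios of opposite sign and were not past 2-fold.

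Contractile genes and other SRF targets were all below 0, against 6484 of all 13378 genes compared. Of 21 genes 12 were lower and 0 higher, with a median of -1.22. Acta2, the smooth muscle actin that marks myofibroblasts, stood at 62221 and 15379.6 (-2.02, interval -2.04 to -1.99). Cnn1 (calponin), which binds actin in smooth muscle, stood at 7594 and 972 (-2.96), Mylk (myosin light chain kinase) at 2157 and 287 (-2.91) and Myh11 (smooth muscle myosin) at 546 and 58.5 (-3.20). Actg2 (-1.99), whose coding sequence is close to that of Acta2, Synpo2 (-2.11) and Tagln (-1.22) were lower too. Members nearest to 0 were cytoskeletal proteins found in many cell types, with -0.23 for Tpm1, -0.34 for Tgfb1i1, -0.45 for Cald1 and -0.50 for Flna.

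The contractile list lay below a log2 ratio of -1 at 12 and 24 h and not at 1 or 5 h. List medians were -0.06, -0.18, -1.07 and -1.22 at 1, 5, 12 and 24 h in replicate 1, and -0.34, -0.23 and -0.19 in the other 5 h pairs. Acta2 in untreated cells went from 122294 at 1 h over 113295 and 84107 to 62221, and with AMG from 127602 over 99878 and 37413 to 15379.6. Both arms thus had lower Acta2 at each later time, and the AMG arm by more. Cnn1 went from 18084 to 7594 untreated and from 22879 to 972 with AMG.

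SRF binds the CArG box, which was searched by that name on both strands. It was in 1.63% of all windows, in 1.62% of the compared genes, in 1.35% of the higher and 3.18% of the lower genes, and in 3 of the 17 contractile genes with a window. Stretches of 100 bases that hold it are shown for these 3, with the match in capitals, starting 227 (Vcl, vinculin), 161 (Myl9, myosin light chain) and 56 (Cnn2, calponin-2) bases before the start.
Vcl (chr14:20929148-20929247, plus strand): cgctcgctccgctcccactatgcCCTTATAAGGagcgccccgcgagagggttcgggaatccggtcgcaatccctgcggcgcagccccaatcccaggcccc
Myl9 (chr2:156775258-156775357, plus strand): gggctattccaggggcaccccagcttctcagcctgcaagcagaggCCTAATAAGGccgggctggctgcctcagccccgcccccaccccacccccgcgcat
Cnn2 (chr10:79988499-79988598, plus strand): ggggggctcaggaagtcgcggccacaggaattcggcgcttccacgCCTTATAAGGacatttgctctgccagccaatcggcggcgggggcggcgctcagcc
Vcl had 17203 untreated and 6437 with AMG (-1.42), Myl9 10197 and 4600.3 (-1.15) and Cnn2 13497 and 8839 (-0.61). The most different contractile genes, Myh11, Cnn1 and Mylk, had no match or no window.

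YAP and TEAD targets, which respond to cell spreading and tension, had a median of -0.39, against 0.02 over all genes, with 9 of 12 below 0. Of the 12, 0 were higher and 1 was lower. That one was F3, and Ctgf (-0.63), Ptpn14 (-0.62), Nuak2 (-0.76) and Cyr61 (-0.24) were not past 2-fold. TGF-beta and BMP signalling genes had 7 of 20 lower and 2 higher (median -0.35), and the ligands stood on both sides. Tgfb3 had 6613 and 1121 (-2.56), Tgfb2 460.2 and 85.5 (-2.41) and Bmp4 574 and 137 (-2.06). The higher members were Tgfb1 (1.58) and Grem1 (gremlin, a secreted BMP antagonist), with 4396 and 28844 (2.71, interval 2.67 to 2.75). Among 13 integrin subunits 4 were lower and 3 higher (median -0.19). Itga2, among the higher, was under 10 untreated, so its direction was fixed by the choice. The collagen receptor subunits Itga11 and Itga1 had 789.5 and 48.6 (-3.99) and 423 and 44.1 (-3.23), and Itga8 was at -2.44. Itgb3, which pairs with alpha-v to bind fibronectin, vitronectin and osteopontin, had 535 and 2950.5 (2.46), and the common subunit Itgb1 was at -0.19.

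**Figure D4:**
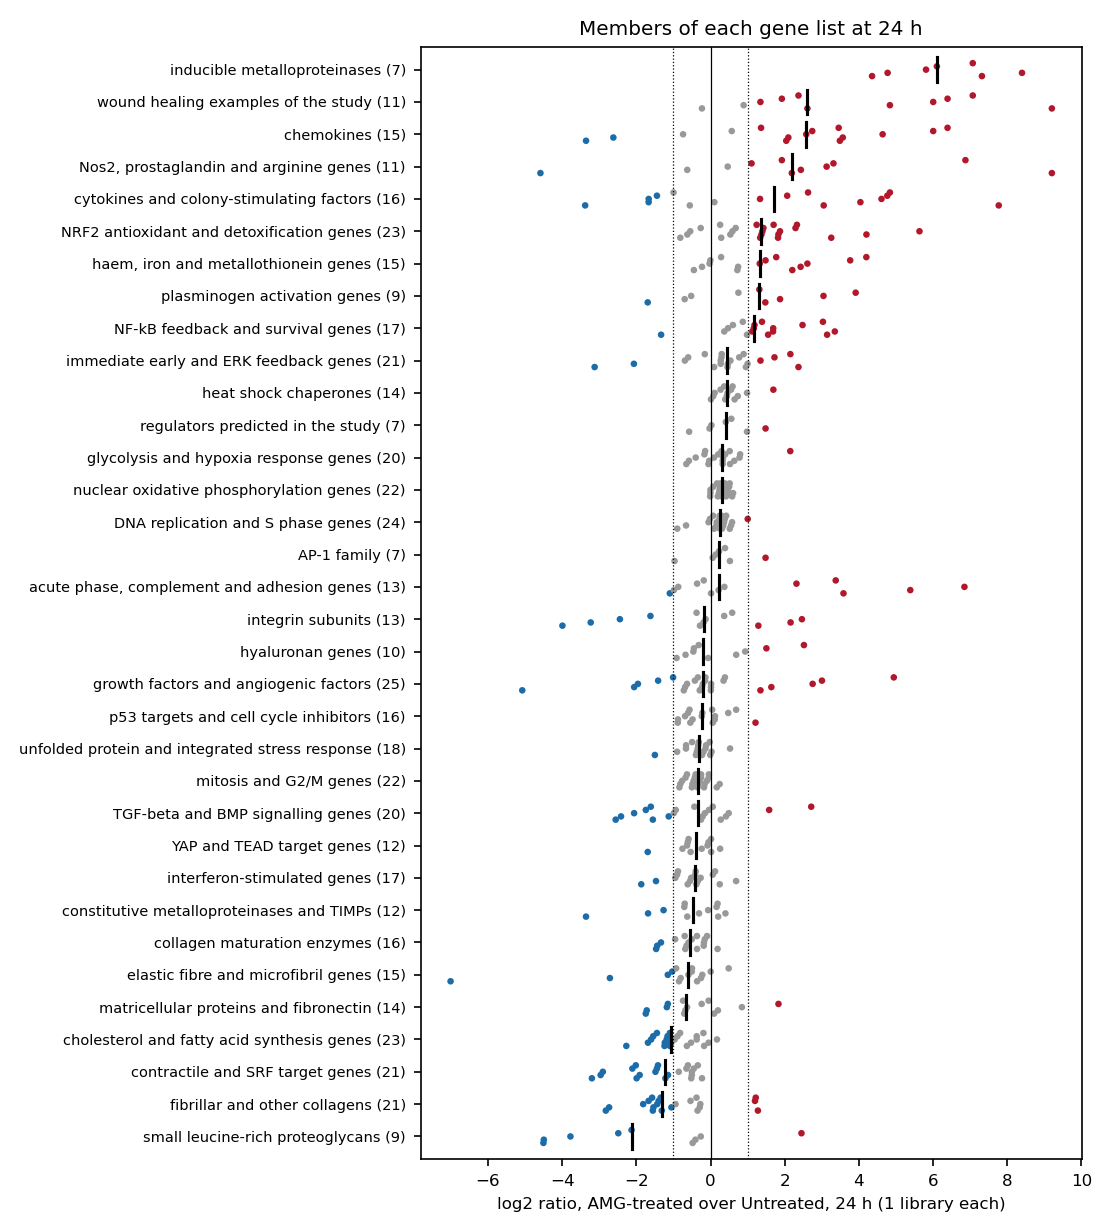
Log2 ratio of AMG over Untreated at 24 h for each compared gene (points) of 34 gene lists, ordered by list median (black bars), with the number of compared genes in brackets and dotted lines at 2-fold. Red points are past 2-fold higher and blue points past 2-fold lower: all 7 inducible metalloproteinases are red, and no contractile or cholesterol synthesis gene is red.

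Of 23 genes of cholesterol and fatty acid synthesis 12 were lower, with 0 higher and a median of -1.06, close to the -1.07 at 12 h. The sterol-regulated enzymes Idi1, Cyp51 and Hmgcs1 had 1068 and 221 (-2.27), 2162 and 711 (-1.60), and 2319.6 and 793 (-1.55). The desaturases Scd1 and Scd2 had -1.69 and -1.16. The fatty acid enzymes Fasn (-0.05), Acaca (-0.17) and Acly (-0.19) were near 0, as was Srebf1 (0.17), while Srebf2, the main regulator of the sterol genes, was at -0.89. In the replicated 5 h pairs the list median was -0.46, -0.06 and -0.25.

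Few genes of growth, energy and stress were past 2-fold, although most members of several lists lay on one side of 0. Over all 13378 genes 6894 were above 0 and 6484 below, and members very near 0 count in these signs too. Of 22 mitosis genes 0 were past 2-fold and 20 were below 0 (median -0.34, -0.81 at 12 h), with Bub1 at -0.84, Nusap1 at -0.82, Ccnb2 at -0.77, Hmmr at -0.67 and Top2a at -0.43. Of 24 replication genes 1 was higher (Cdt1, 1.00), and 20 were above 0, with Rrm1 at -0.90, Rrm2 at -0.66, Mcm2 at 0.58 and a list median of 0.26. Of 22 oxidative phosphorylation genes 0 were past 2-fold and 19 were above 0 (median 0.30). Ndufa1 went from 0.61 to 0.14 after correction for length, and the part of transcript length in the list median was not tested. Others named by the rule were Cox4i1 (0.58), Ndufb9 (0.52), Cox5a (0.50) and Atp5b (0.24).

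Among 20 glycolysis and hypoxia genes only Egln3, an oxygen sensor that hypoxia induces, was higher (124 and 554, 2.15), beside Slc2a1 (0.80), Ankrd37 (0.78), Pkm (0.53) and Pfkfb3 (-0.65). In the unfolded protein and integrated stress response 1 of 18 was lower (Trib3, -1.50), 0 were higher and 16 were below 0, with Herpud1 at -0.90, Asns at -0.66, Chac1 at -0.66 and Hsp90b1 at -0.32. The heat shock list had all 14 above 0, the lowest at 0.01, against 6894 of all 13378 genes. Of the 14, 1 was higher, the small chaperone Cryab (3217 and 10402, 1.69). Hsph1 (0.98), Hspb8 (0.65), Hsp90ab1 (0.40) and Hspa1b (0.73, a near copy of Hspa1a) were not past 2-fold. Of 16 p53 targets and cell cycle inhibitors Gadd45a was higher (1.21), and Gdf15 (-0.88), Trp53inp1 (-0.88), Cdkn2c (0.69) and Ccng1 (0.04) were not.

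AP-1 genes, which encode the Fos and Jun subunits, had 1 of 7 higher and 0 lower (median 0.23). Fosl1, which encodes Fra-1, stood at 1266 and 3539 (1.48, interval 1.40 to 1.57) and had been called higher at 5 h (limma, adjusted p = 0.019, log2 fold change 1.37 ± 0.14 SE, n = 3 per group). Fos itself stood at 219.8 and 112 (-0.97), and Jun at 0.52, Jund at 0.39, Fosb at 0.23, Fosl2 at 0.14 and Junb at 0.06 were not past 2-fold. Of 21 immediate early and ERK feedback genes 4 were higher and 2 lower (median 0.46). Egr2, an early growth response factor, went from 446 untreated and 2377 with AMG at 1 h to 306 and 34.2 at 24 h (-3.13), and Egr1 from 724 and 6234 to 2685 and 640.0 (-2.07). Both were higher with AMG early and lower late. The phosphatase Dusp10 (2.37) and the nuclear receptor Nr4a2 (2.15) were higher.

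Among 25 growth and angiogenic factors 5 were higher and 5 lower (median -0.21). The EGF receptor ligands Areg and Ereg had 0 and 29.7, at least 12.9-fold higher, and 1051 and 7084 (2.75). Areg entered only through its AMG value. Angptl4, an inhibitor of lipoprotein lipase, had 729 and 5851 (3.00). Igfbp5 was far below the rest, while Igfbp4 was at -0.72. Of the 11 wound healing genes the study had picked as examples from this experiment, 9 were higher at 24 h (median 2.61), which is no independent evidence of their direction. Besides Nos2, Mmp3, Ccl20, Cxcl2, Lif, Ptgs2, Hmox1, Dusp10 and Vegfa (2354 and 5981, 1.34), the list holds Ets1, at 0.89, and Flt1, at -0.23, both of which had been higher at 12 h (1.33 and 1.02). Of the study's 9 predicted regulators 7 were compared and 1 (Fosl1) was past 2-fold, with Bcl3 at 0.98, Plag1 at -0.58, Otud4 at 0.56, Foxc2 at 0.41, Cebpg at -0.03 and Mms19 at 0.02. Foxo6 had 10.7 and 0.9 normalised counts and Crx had 0 in both. The study's PCR reference genes Actb, Gapdh and Rpl13a were at 0.10, 0.46 and 0.74.

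The labelled cell type held in both libraries. Vim, Col1a1, Col1a2, Col3a1, Pdgfra, Pdgfrb and Thy1 were all present, with 123553 and 101612 for Vim and 2787 and 3822 for Pdgfra, and the summed level of 12 fibroblast markers was 534350.3 untreated and 307862 with AMG, where 4 were lower and 1 higher. Of 17 keratinocyte markers 8 were at 0 in both libraries, among them Krt14, Krt1, Krt6a, Krt17 and Cdh1, 13 were under a mean of 10, and the sum went from 871 to 387, mostly Dsp. Of 18 leukocyte markers 11 were compared (5 lower, 2 higher, median -0.94) and the sum was 1329 and 1341. Emr1 (F4/80), Itgam and Lyz2 of macrophages were lower (-2.75, -1.87 and -1.71), and Cd14 (2.99) and S100a8 (6.01) were higher, with Mrc1 at 0.65. Emr1, Itgam and Fcer1g, all counted as lower, were under 10 with AMG, and S100a8 was under 10 untreated. For these the direction was fixed by the choice, and the counts and the median include them. The part of leukocytes in the inflammatory genes was not tested.

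Markers of other tissues were few. The red cell markers found in the table were at 0 in both libraries (5 of 5), as were 7 of 13 skeletal muscle markers and 4 of 8 adipocyte markers, among them Adipoq and Plin1. The summed levels of these lists were 791 and 329 for muscle (mostly Acta1), 2333 and 512 for adipocytes (mostly Car3 and Fabp4, with Pparg at 52.1 and 15.3, -1.70), 646 and 607 for endothelial and mural cells, and 306 and 153 for Schwann cells and melanocytes. Cartilage and bone markers, which tail tissue can contribute, were all below 0 among the 6 compared, with 4 lower and a sum of 3730.2 and 1354. Col2a1 stood at 988 and 119 (-3.05), in the same direction as the collagens and small proteoglycans. The part of a changed cell mixture in those lists was not tested.

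The 24 h differences were next set beside earlier times in replicate 1, each of which had its own untreated library. Of the 797 higher genes 288 (36.1%) were lasting, that is, past 2-fold in the same direction at 5, 12 and 24 h, with Nos2, Mmp10 and Mmp3 ranked first. A further 57 (7.15%) were late, past 2-fold at 12 and 24 h and under 0.5 in that direction at 1 and 5 h, led by S100a8, Gsta3 and Rspo4. The class called 24 h only, under 0.5 in that direction at 1, 5 and 12 h, held 51 (6.40%), led by Hp, Ttyh1 and Fcgr3. Late and 24 h only genes may have differed in the other direction earlier, since only 1 direction was limited. Of the 1071 lower genes 162 (15.1%) were lasting (95 with a pseudocount of 10), 150 (14.0%) were late and 109 (10.2%) were in the class called 24 h only. Their leading genes were Car3, Lgr5 and Atp12a for lasting, Ggt5, Megf6 and Ogn for late, and Aldh1a3, Col14a1 and Thbs4 for 24 h only. Of these, Aldh1a3 was above 0 earlier, at 0.51 at 12 h and at 2.11, 2.22 and 2.37 at 5 h in replicates 2 to 4. The lasting class was thus a larger share of the higher genes than of the lower ones. It rests on the 5 h and 12 h pairs of replicate 1, whose length relations (rho = 0.43 and 0.16) had the opposite sign to that at 24 h. The late class uses both pairs too.

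Single genes show what the classes hold. Nos2 with AMG went from 36.5 at 1 h over 225 and 935 to 3745, while the untreated values were between 1.64 and 7.91. S100a8, a calcium-binding inflammatory protein, stood at 3.66 and 54.3 at 12 h and at 1.53 and 162 at 24 h, and Rspo4, a secreted Wnt agonist, had 0 and 38.7 at 24 h, at least 16.8-fold higher. Hp was level at 12 h (32.2 and 34.3). Ttyh1 went from 45.4 and 62.9 to 26.8 and 129.6, and Fcgr3 had only 3 and 23 reads at 24 h. Igfbp5 in untreated cells went from 10395 at 1 h over 5062 and 9972 to 22605 and with AMG from 7287 over 7708 and 2443 to 669, and Lgr5 from 81.7 at 1 h to 456 untreated and from 48.7 to 3.6 with AMG. For Igfbp5 and Lgr5 the untreated level itself was higher at 24 h than before.

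Across the classes the arms were split as follows. From 12 to 24 h, the 1071 lower genes moved by a median of 0.39 on the log2 scale in untreated cells and -0.30 with AMG, and 170 of them were past 2-fold up in untreated cells against 212 past 2-fold down with AMG. The 797 higher genes moved by -0.25 untreated and 0.24 with AMG, with 125 past 2-fold down untreated and 105 past 2-fold up with AMG. These genes were chosen on the 24 h values that enter the changes, so the direction is fixed by the choice and only the split between the arms is described. Lasting genes had medians near 0, -0.02 untreated and 0.00 with AMG for the higher and 0.09 and 0.04 for the lower ones, while single members moved both ways. Of the 288 lasting higher genes 23 went past 2-fold up and 38 down in untreated cells, and of the 162 lasting lower genes 20 went up and 19 down with AMG.

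**Figure D5:**
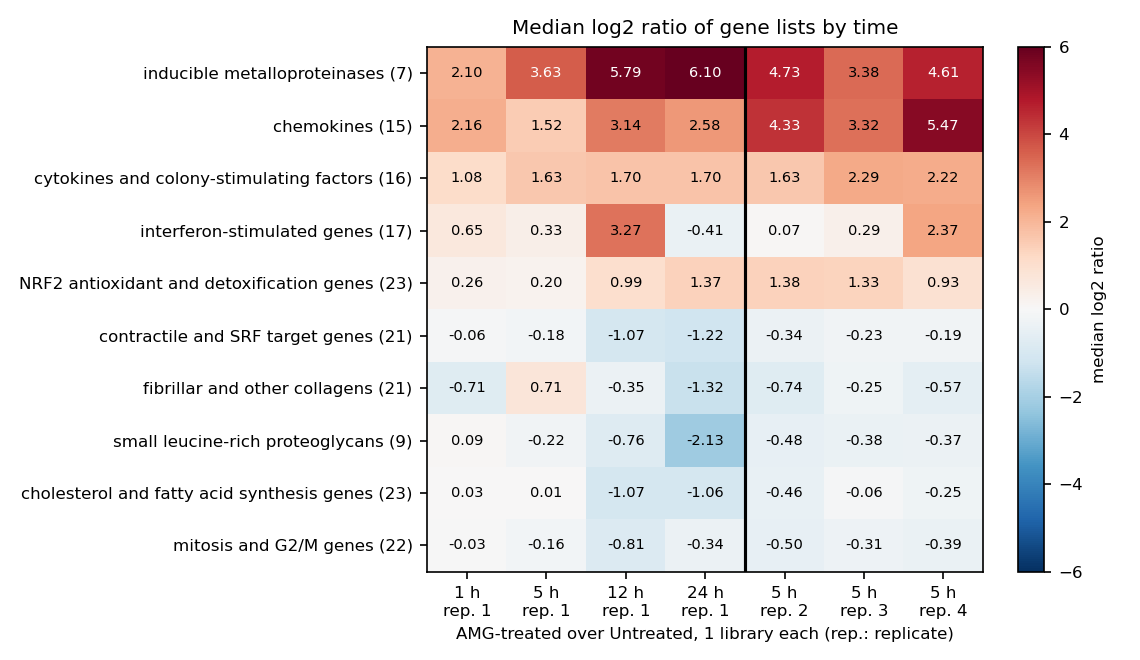
Median log2 ratio of AMG over Untreated (colour and number) for 10 gene lists, with the number of compared genes in brackets, in replicate 1 at 1, 5, 12 and 24 h and in replicates 2 to 4 at 5 h, right of the black line. Inducible metalloproteinases stand at 6.10 at 24 h, interferon-stimulated genes at 3.27 at 12 h and -0.41 at 24 h, and contractile genes at -1.07 and -1.22.

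Only 5 h had replicates, so the replicated test bears on which 24 h differences were already there and not on the 24 h level itself. With limma on log2(normalised count + 1) and an adjusted p under 0.05, 112 of 13096 genes were higher by at least 2-fold at 5 h (0.855%) and 32 were lower (0.244%). Of the genes higher at 24 h 672 were tested and 85 of them were called higher at 5 h (12.6% of those tested and 75.9% of the 112), and of the genes lower at 24 h 910 were tested and 24 were called lower (2.64%, and 75% of the 32). No gene was called in the opposite direction. With the replicate number as a block, which the libraries bear out as pairs, 530 genes were called higher (4.05%) and 560 lower (4.28%), and of the 24 h genes 265 and 228 were among them, with 6 and 13 called the opposite way. The 5 h calls were sensitive to single libraries: without AMG-treated replicate 2 they included 1 of the higher and 0 of the lower 24 h genes, and without AMG-treated replicate 3 they included 191 and 118.

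Among the genes named above, adjusted p-values at 5 h (limma, n = 3 per group) were 0.00958 for Nos2 (log2 fold change 8.36 ± 0.67 SE), 0.019 for Mmp3 (4.49 ± 0.50), 0.0021 for Slc7a11 (5.43 ± 0.26) and 0.00567 for Hmox1 (3.32 ± 0.23), each higher in 3 of 3 pairs. Among genes lower at 24 h the same test gave no call for the following, with 0.137 for Lgr5 (-3.79 ± 1.18), 0.783 for Acta2 (-0.11 ± 0.21), 0.245 for Col1a1 (-0.63 ± 0.29) and 0.43 for Igfbp5 (-0.57 ± 0.41). In the fit that pairs libraries by replicate number (limma), these adjusted p-values became 3.09e-05 for Lgr5, 0.00138 for Igfbp5, 0.0109 for Col1a1 and 0.541 for Acta2. Lgr5 was therefore called lower in the paired fit, in 3 of 3 pairs, while the Igfbp5 and Col1a1 differences at 5 h were under 2-fold and Acta2 did not pass. Aldh1a3, which makes retinoic acid, was lower at 24 h (2938 and 276, -3.41) but had log2 ratios of 2.11, 2.22 and 2.37 in the 5 h pairs, and its adjusted p was 0.183 unpaired and 1.53e-06 paired (limma).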

How the data were processed

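RNA of scratch-wounded tail fibroblasts was sequenced as stranded, poly(A)-selected libraries (single-end, 50 bp). According to the study's methods and the submitters' processing notes, the authors checked reads with FastQC 0.11.5 and trimmed them with ea-utils, aligned them to mm10 with TopHat2 2.0.13, kept unique alignments with SAMtools 0.1.19.24, counted reads per gene with HTSeq 0.5.3p3 and divided by DESeq size factors. The deposited signal values are these normalised counts, in 2 tables scaled separately (replicate 1 with 8 libraries, replicates 2 to 4 with 6). The gene annotation used for counting and its strand option are not given in the sources used here, so overlapping genes and near copies are uncertain. The study credits this experiment to an earlier publication, and its own sequencing methods name another deposit. Details taken from those methods may therefore differ for these libraries. The methods describe treatments of 1, 5 and 12 h, and the 24 h time is taken from the labels.

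Every value, divided by its library's smallest step, gave a whole read within 0.1 (100% of values), which supplied read totals, Clopper-Pearson intervals (95%) and edgeR 4.0.16 and DESeq2 1.42.0 as alternatives. The log2 ratio at 24 h used a pseudocount of 1 and genes with a mean of at least 10, which understates low genes. Length-corrected ratios subtract a lowess trend (fraction 0.3) on GENCODE transcript length. At 5 h, limma 3.58.1 with a trended prior was fitted to log2(value + 1) over 3 libraries per group (Benjamini-Hochberg, 0.05, and at least 2-fold), after a check on simulated data. Same-numbered 5 h libraries deviated together (r = 0.65, 0.76 and 0.70, other combinations -0.59 to 0.12), so the numbers pair them. What a shared number stands for is not stated. Where nothing says that libraries came from separate cultures or animals, p-values measure the spread between libraries only.

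The comparison and the gene lists were chosen with earlier results of these data known. The rule named the 10 genes furthest up and down by interval bound, the 4 (6 in collagens, contractile genes and inducible metalloproteinases) largest ratios and the highest untreated level per list, all members of the study's lists and the AP-1 family, and 3 genes per time pattern. Named beyond it, after values were seen, were Acaca, Acly, Fasn, Srebf1, Srebf2, Birc2, Birc3, Dcun1d5, Tmem123, Mmp7, Mmp8, Mmp9, Mmp20, Mmp27, Cald1, Flna, Tpm1, Tgfb1i1, Tagln, Cnn2, Myl9, Col3a1, Col5a3, Col7a1, Col18a1, Ccl5, Cxcl12, Dcn, Il33, Itga2, Taldo1, Pgd, Tkt, G6pdx, Nfkb1, Rel, Rela, Relb and Tgfb1. The promoters of Vcl, Mmp10 and Gsta3 were printed by rule and the others after values were seen. Promoter windows came from RefSeq (GRCm38.p6) and covered 27025 genes, and 39393 of the 43472 gene names matched GENCODE vM21 by symbol and 976 by synonym. Some genes that the rule names are not reported here.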

Additional observations from a re-analysis of the deposited data

Results flagged for a closer look

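The Untreated 5h replicate 4 library had 34696529 assigned reads, far above the other libraries of its group, and the Untreated 5h replicate 1 library had 7.01% of reads in ribosomal protein genes, also apart from its group. How often such a gap arises by chance was not tested. The second library enters the 5 h pair of replicate 1, on which the time patterns of the 24 h genes rest.

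Among the named genes, which were the only ones searched, those lower with AMG at 24 h but higher in all 4 pairs at 5 h, a difference that was not tested, were Aldh1a3, Mx2, Oasl2 and Loxl2. Aldh1a3 was at -3.41 at 24 h, against 1.71 in replicate 1 and 2.11, 2.22 and 2.37 in replicates 2 to 4 at 5 h. Mx2 was at -1.87, against 2.85, 2.04, 0.86 and 3.14. Oasl2 was at -1.47, against 1.03, 2.71, 0.29 and 3.08. Loxl2 was at -1.47, against 1.21, 0.12, 0.12 and 0.14, so its 5 h values were small outside replicate 1.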

How the results depend on the processing

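Under the alternatives run, no count and no ratio past 2-fold changed direction, and Cdt1, just past 2-fold, was under it in 5 settings. The counts of genes past 2-fold were 505 higher and 638 lower with a mean of at least 50, 2056 and 2569 over all genes above 0, and 492 and 617 when the whole counting interval had to pass, the other settings of scale and pseudocount staying within 1.5 times. A pseudocount of 10 left 95 lasting lower genes and moved the median of the inducible metalloproteinases to 4.23. The median of the keratinocyte markers was -1.0 with a mean of at least 50 and -0.82 over all genes above 0, and that of the adipocyte markers -3.19 and -0.80. Counting each list or named gene once per setting, 339 of 344 medians and 1311 of 1460 ratios moved by less than their error. Of the 24 h genes called at 5 h, the replicate block (pairing by number) gave 265 higher and 228 lower, edgeR on whole reads with the block 270 and 225, DESeq2 188 and 106, and leaving out 1 library from 1 to 191 higher (lowest without AMG-treated replicate 2, then 6 without AMG-treated replicate 4, 9 without Untreated replicate 4, 10 without Untreated replicate 2 and 35 without Untreated replicate 3) and from 0 (without replicate 2 or 4 of either group) over 11 (without Untreated replicate 3) to 118 lower, the highest of both without AMG-treated replicate 3. The cause was not tested. At 24 h itself no library can be left out and no paired test exists, and 3 reads set the lower limit for genes at 0.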

Other observations

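Gene groups outside the lists above were looked up after the 24 h values had been seen, so their counts describe these libraries only. Of 68 genes of Wnt signalling 52 were compared, of which 17 were lower and 2 higher (median -0.51). Lgr5, Ror1, Nkd1, Wif1, Wnt16 and Rnf43, among the lower, were under 10 with AMG, and Rspo4, among the higher, was under 10 untreated. For these the direction was fixed by the choice, and the counts and the median include them. Besides Lgr5, the receptor Ror1 had 80.4 untreated and 6.3 with AMG (-3.48), the ligand Wnt4 187 and 24.3 (-2.89), and the secreted antagonists Sfrp1 and Sfrp2 4916 and 484 (-3.34) and 544 and 68.4 (-2.97). Agonists and antagonists were thus both among the lower genes. Axin2, a feedback target of the pathway, had 110.3 and 43.2 (-1.33), and Nkd2, an inhibitor, was higher with 363 and 932 (1.36). Of 26 retinoid genes 22 were compared, with 7 lower and 2 higher (median -0.50). Aldh1a3 was lowest, the reductase Dhrs3 was at -1.28, the retinoic acid hydroxylase Cyp26b1 at -1.15 and the receptor Rarb at -1.01, while the retinol carrier Stra6 had 20.7 and 121 (2.49). Rarb was under 10 with AMG, so its direction was fixed by the choice, and its counting interval, -2.31 to 0.02, included 0.

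Of 23 MHC class I genes 21 were compared, with 4 higher and 0 lower (median -0.07). H2-Q7, among the higher, was under 10 untreated, so its direction was fixed by the choice. H2-T22 had 852 and 6638 (2.96) and H2-T10 27.6 and 320.4 (3.49), at a time when interferon-stimulated genes were level or lower. Of 24 prolactin family genes 4 were above the minimum and all 4 were higher, but Prl7d1 (0 and 34.2) and Prl2c5 (8.42 and 271) entered only through their AMG values. Prl2c2 (proliferin) had 31.4 and 1293 (5.32) and Prl2c3 85.8 and 1613 (4.22). Members of both families are near copies between which reads may be split, so the single values are uncertain.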
